A study of Caenorhabditis elegans with 9 samples.

Results

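The genes described here encode the proteins of the mitochondrial ribosome of *C. elegans*. A gene was a member where its symbol in the array's probe annotation was mrpl- or mrps- followed by a number, and where it had several probe sets, that with its highest 9-array mean was taken. The rule gave 59 members of 17138 genes on the array, 34 of the large subunit (mrpl) and 25 of the small subunit (mrps). Of these, 57 passed a filter on low values, 33 large-subunit and 24 small-subunit genes.

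Whole-worm RNA of the wild type strain N2 was hybridised to 9 GeneChip arrays at 3 ages, L4 larvae, Day 6 adults and Day 15 adults, with 3 arrays per age. The 3 arrays of an age came from independently propagated populations, all kept at 20°C. The adults were aged on 0.05 mg/mL FUDR, a drug that blocks DNA synthesis and so keeps their progeny from developing, whereas the L4 larvae were not exposed to it. In both comparisons with L4, age and exposure to the drug therefore cannot be told apart. Day 6 and Day 15 adults were both exposed. By the paper's methods they stayed on the drug from L4 until harvest, so Day 15 adults were exposed for longer. Age and length of exposure therefore cannot be told apart between Day 6 and Day 15 either.

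Mitochondria keep a small genome of their own, and the few proteins it encodes, all parts of the respiratory chain and the ATP synthase, are made on ribosomes inside the organelle. The RNA of these ribosomes comes from mitochondrial DNA, but all of their proteins are encoded in the nucleus, made in the cytosol and imported. Many descend from bacterial ribosomal proteins and keep their numbers, and others were added to the ribosome in the course of mitochondrial evolution. In worms, lowering the level of mrps-5 is known to extend lifespan and to induce the mitochondrial unfolded protein response.

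Values are log2 expression values, so that a difference of 1 is a 2-fold change. A gene was tested where its mean was at least 4 in at least 1 age, which kept 11760 genes. A gene rose or fell where limma, fitted to all 9 arrays, gave an adjusted p (over the 11760 genes) under 0.05 and a change of at least 2-fold. It is called higher or lower at the adjusted p alone where the fold was not asked for. Array medians lay between 5.42 and 5.73, and in each array 59.8% to 61.6% of the probe sets reached 4. The number of arrays limits the precision. Replicate 2 of L4 stood apart from the other L4 arrays in markers of oocytes, whose median deviation from each gene's mean was 0.14 in that array against -2.64 and -1.68 in replicates 1 and 3. It also stood apart in germline markers (-0.03 against -1.22 and -0.57) and in sperm markers (-0.25 against 0.62 and 1.09). The main counts and medians over all members that rest on L4 are also given without it. Of the counts of rises and falls over other lists, most of those that change are given without it too. Other counts and medians, such as the order of the 3 means and the medians of subunits and number classes, are from all arrays. Values of single genes are from all arrays unless a sentence says otherwise.

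In the median, the mitochondrial ribosomal protein genes were highest in L4 larvae, lowest at Day 6 and between these at Day 15. Single members differed, with the Day 15 mean between those of Day 6 and L4 in 38 of 57 and above that of L4 in 16. Taken as the deviation of each member from its own mean over the 9 arrays, the median of the 57 members was 0.45, 0.56 and 0.42 in the L4 arrays, -0.55, -0.49 and -0.58 in the Day 6 arrays and 0.06, 0.08 and 0.18 in the Day 15 arrays. The 3 ages did not overlap in this median. Over all genes tested the same medians stayed between -0.11 and 0.17. In 45 of the 57 members (78.9%) each of the 3 Day 6 arrays was below each of the other 6 arrays, an order found in 13.2% of all genes tested. No member had its 3 Day 6 arrays above the other 6. The Day 6 mean was the lowest of the 3 ages in 52 members (91.2%, against 22.9% of all genes tested). Without replicate 2 of L4 the count of members with all Day 6 arrays lowest was again 45, against 14.3% of all genes.

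**Figure D1:**
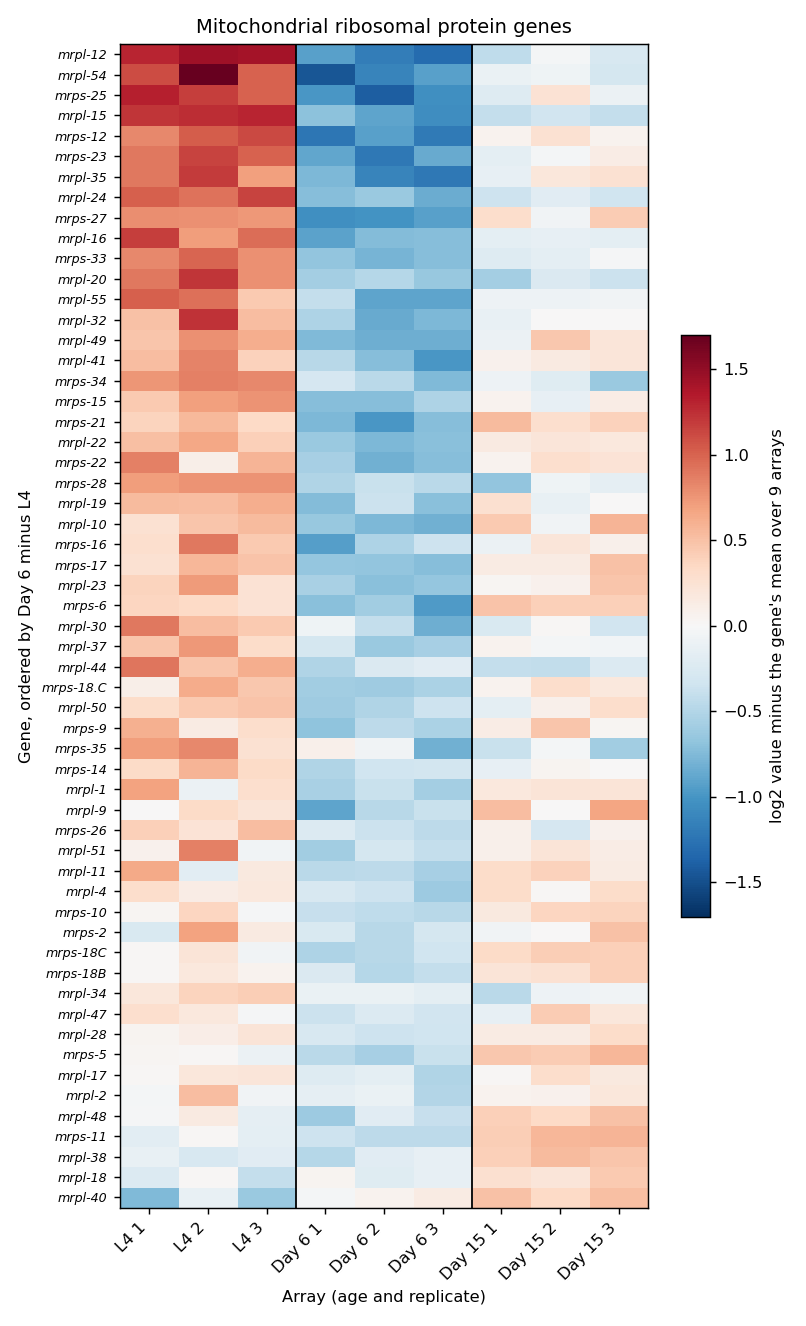
Colours show the log2 value of each tested mitochondrial ribosomal protein gene (rows) in each of the 9 arrays (columns, by age and replicate) minus the gene's mean over the 9 arrays. The Day 6 columns hold the lowest values in most rows, and in 45 of 57 rows all 3 of them lie below the other 6 arrays.

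The first comparison asks how the adult at Day 6 differed from the L4 larva, the last larval stage. From L4 to Day 6, 30 of the 57 members fell and 0 rose (52.6%), where 24.6% of all genes tested fell and 29.3% rose. At the adjusted p alone 49 members were lower (86.0%, against 30.5% of all genes) and 1, mrpl-40, was higher (37.2% of all genes were higher). The remaining 7 were mrpl-2, mrpl-18, mrpl-38, mrpl-47, mrpl-48, mrps-2 and mrps-11. The 3 arrays of Day 6 were all below those of L4 in 53 members (93%, against 32.6% of all genes) and all above them in 1 (1.75%, against 39.6%). The median change of the members was -1.06 on the log2 scale, a 2.08-fold lower level, with a range from -2.52 to 0.56, and the median of all genes was 0.17. Without replicate 2 of L4, 29 members fell and 0 rose (26.6% and 30.6% of all genes), with a median of -1.01. At the adjusted p alone 47 were then lower and 1 higher, against 33.4% and 39.6% of all genes. Day 6 arrays were then all below L4 in 53 members and all above in 2, against 37.6% and 45.3% of all genes. With each array centred on its median instead, 22 members fell and 0 rose. The median of the members was then -0.86 and that of all genes 0.36.

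The largest change was that of mrpl-12 (W09D10.3), the counterpart of the bacterial stalk protein that brings translation factors to the ribosome. Its log2 values were 11.97, 12.12 and 12.09 at L4, 9.75, 9.50 and 9.37 at Day 6 and 10.24, 10.65 and 10.40 at Day 15. The 3 ages did not overlap, with L4 highest and Day 6 lowest. It fell by 2.52 on the log2 scale from L4 to Day 6, which is 5.74-fold (SE 0.18, adjusted p = 4.2e-06). From Day 6 to Day 15 its change was 0.89 (SE 0.18, adjusted p = 0.00317), and at Day 15 it was still 3.10-fold below L4 (change -1.63, adjusted p = 4.7e-05).

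mrpl-54 (F25H5.6) encodes a large-subunit protein without a bacterial counterpart. Its values were 8.89, 9.65 and 8.78 at L4, 6.32, 6.66 and 6.86 at Day 6 and 7.67, 7.70 and 7.48 at Day 15, again with no overlap between ages. It fell 5.63-fold from L4 to Day 6 (change -2.49, adjusted p = 4.1e-05). It then rose by 1.00 (SE 0.26, adjusted p = 0.0117), which lies at the 2-fold limit and is under it in some of the alternatives given in the closing section.

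mrpl-15 (Y92H12BR.8), the counterpart of a bacterial large-subunit protein, was at 10.15, 10.19 and 10.23 at L4, at 8.23, 8.03 and 7.88 at Day 6 and at 8.53, 8.60 and 8.53 at Day 15. All adult arrays were more than 1 log2 unit below all L4 arrays. The fall to Day 6 was 4.42-fold (change -2.14, SE 0.15, adjusted p = 4.7e-06). Its later change of 0.51 (adjusted p = 0.0252) was under 2-fold, and it remained 3.11-fold below L4 at Day 15 (change -1.64, adjusted p = 1.9e-05).

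In the small subunit, mrps-25 (Y55F3AM.1), mrps-12 (T03D8.2) and mrps-23 (ZK1098.7) fell most. mrps-12 is the counterpart of the bacterial protein at the decoding centre, where codon and anticodon are matched, and mrps-23 and mrps-25 are proteins of the mitochondrial ribosome without a bacterial counterpart. The values of mrps-25 were 9.72, 9.57 and 9.40 at L4, 7.41, 7.0 and 7.35 at Day 6 and 8.17, 8.64 and 8.30 at Day 15. Those of mrps-12 were 11.09, 11.30 and 11.40, then 9.05, 9.35 and 9.07, then 10.34, 10.54 and 10.33. Those of mrps-23 were 11.57, 11.83 and 11.68, then 9.80, 9.46 and 9.82, then 10.51, 10.64 and 10.80. In each of the 3 genes the arrays of the 3 ages were fully separated, with Day 6 lowest. The changes from L4 to Day 6 were -2.31 for mrps-25 (adjusted p = 1.3e-05), -2.11 for mrps-12 (adjusted p = 9.2e-06) and -2.0 for mrps-23 (adjusted p = 1.5e-05).

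One member went against the others at the adjusted p alone. mrpl-40 (F54C4.1), a large-subunit protein without a bacterial counterpart, is described although the rule for named genes does not take it, because its values stood out. It was at 10.96, 11.59 and 11.09 at L4, at 11.68, 11.77 and 11.86 at Day 6 and at 12.21, 12.06 and 12.23 at Day 15. Its arrays did not overlap between any 2 ages, and its order was the reverse of a fall. The change from L4 to Day 6 was 0.56 (1.47-fold, SE 0.20, adjusted p = 0.0309) and that from L4 to Day 15 was 0.95 (1.94-fold, adjusted p = 0.00205). The first did not pass the adjusted p in several alternatives, among them the fit of only the 2 ages compared.

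**Figure D2:**
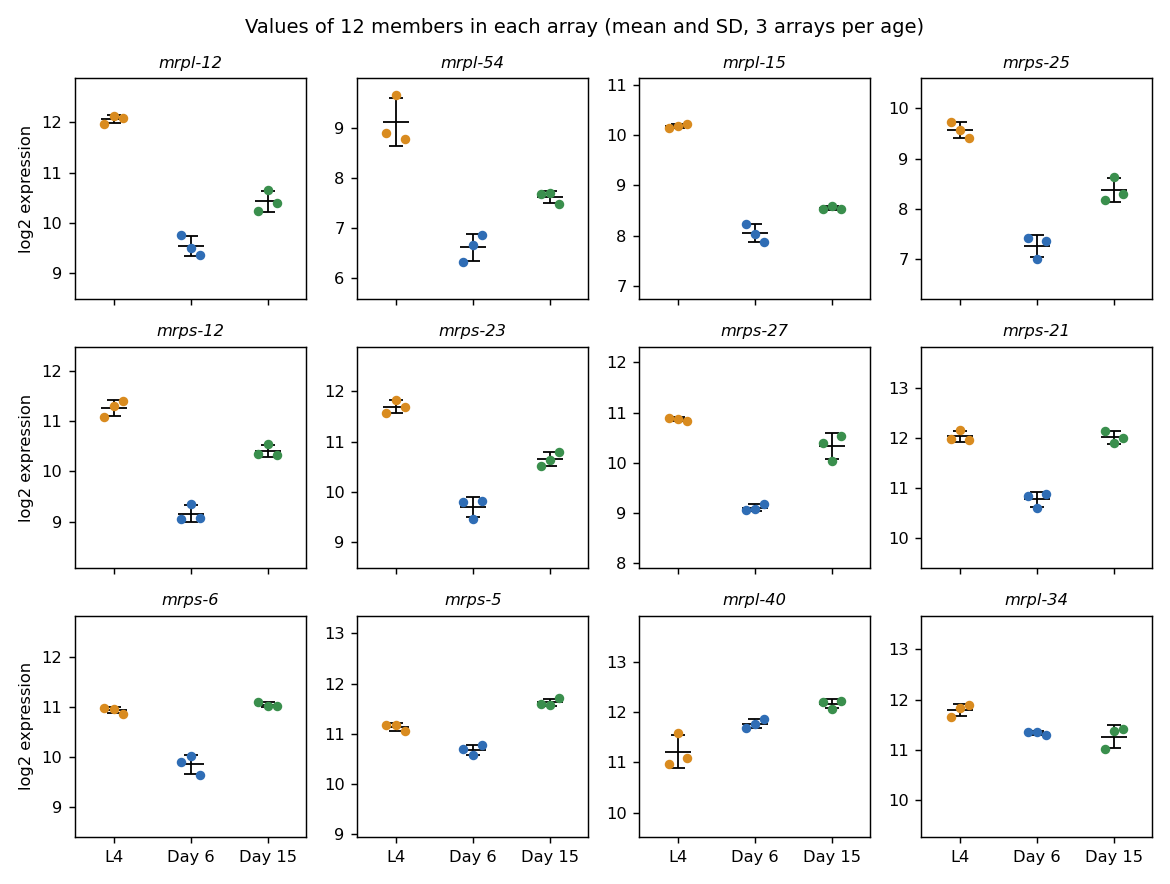
Log2 values of 12 mitochondrial ribosomal protein genes in each array (points) by age, with the mean and SD of the 3 arrays as bars; every panel spans the same number of log2 units, centred on its gene. The Day 6 points lie below the L4 points in every panel but that of mrpl-40, and the Day 15 points lie above the Day 6 points in every panel but that of mrpl-34.

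The next comparison asks what changed within adulthood, between Day 6 and Day 15. It shares the Day 6 arrays with the comparison above and the Day 15 arrays with the one that follows. From Day 6 to Day 15, 8 of the 57 members rose and 0 fell (14%), where 16.4% of all genes tested rose and 16.9% fell. By that count the members were near the share of all genes. At the adjusted p alone 41 members were higher and 0 lower (71.9%, against 23.2% of all genes higher and 22% lower), and 33 of these 41 changed by less than 2-fold, by 0.44 to 0.99 on the log2 scale. The 3 arrays of Day 15 were all above those of Day 6 in 49 members (86.0%, against 34.5%). The median change was 0.67, a 1.59-fold higher level, with a range from -0.07 to 1.25, where the median of all genes was 0.00.

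The 8 members that rose were mrpl-10, mrpl-35, mrpl-54, mrps-6, mrps-12, mrps-21, mrps-25 and mrps-27. The largest change was that of the decoding-centre protein mrps-12, by 1.25 (2.37-fold, SE 0.17, adjusted p = 3.4e-04). Its Day 15 arrays stayed below its L4 arrays, by 0.86 in the mean (adjusted p = 0.00168).

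mrps-21 (F29B9.10) and mrps-6 (R12E2.12), both counterparts of bacterial small-subunit proteins, came within 0.12 of their L4 mean at Day 15. mrps-21 was at 11.98, 12.16 and 11.95 at L4, at 10.84, 10.61 and 10.88 at Day 6 and at 12.14, 11.89 and 12 at Day 15. Its L4 and Day 15 arrays overlapped, and its Day 6 arrays were more than 1 log2 unit below both. The rise from Day 6 was 1.23 (SE 0.16, adjusted p = 2.7e-04), and the difference between Day 15 and L4 was -0.02 (adjusted p = 0.919). mrps-6 was at 10.97, 10.95 and 10.86, then at 9.90, 10.02 and 9.65, then at 11.10, 11.01 and 11.02. It rose by 1.19 (SE 0.16, adjusted p = 3.0e-04), and its Day 15 arrays were just above its L4 arrays, by 0.12 in the mean (SE 0.16, adjusted p = 0.525).

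mrps-27 (K11B4.1), whose human counterpart belongs to the pentatricopeptide repeat proteins that bind RNA, was at 10.90, 10.88 and 10.84 at L4, at 9.06, 9.09 and 9.18 at Day 6 and at 10.40, 10.04 and 10.54 at Day 15. It rose by 1.22 (adjusted p = 4.2e-04), and all its Day 15 arrays stayed below L4. mrpl-35 (M01F1.6), a counterpart of a bacterial large-subunit protein, was at 10.42, 10.70 and 10.22, then at 8.76, 8.39 and 8.30, then at 9.38, 9.71 and 9.78. Its rise was 1.14 (SE 0.21, adjusted p = 0.00192), and the 3 ages did not overlap. mrps-25 rose by 1.12 (adjusted p = 0.00159). mrpl-10 (K01C8.6), the counterpart of the bacterial protein that holds the stalk, fell by 1.16 to Day 6 and rose by 1.06 to Day 15 (adjusted p = 8.4e-04 and 0.00224).

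The 2-fold limit separated members with nearly the same change. mrpl-54 was just inside it with 1.00, and mrpl-49 and mrpl-9 were just outside it, each with 0.99 (adjusted p = 0.00219 and 0.00716). mrps-5 (E02A10.1), known from the lifespan work named above and outside the rule for named genes, was also just outside. Its values were 11.18, 11.17 and 11.05 at L4, 10.69, 10.58 and 10.77 at Day 6 and 11.60, 11.58 and 11.71 at Day 15. The 3 ages did not overlap, and Day 15 was the highest. It changed by -0.45 from L4 to Day 6 (adjusted p = 0.0222), by 0.95 from Day 6 to Day 15 (1.93-fold, SE 0.15, adjusted p = 7.3e-04) and by 0.50 from L4 to Day 15 (adjusted p = 0.0137).

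The members with the smallest changes between Day 6 and Day 15 were mrpl-44 (F02A9.4), mrpl-34 (C25A1.13) and mrps-35 (Y39B6A.39). mrpl-44, whose human counterpart has the fold of an RNase III enzyme, was at 11.75, 11.31 and 11.45 at L4, at 10.33, 10.59 and 10.65 at Day 6 and at 10.43, 10.42 and 10.60 at Day 15. Its adult ages overlapped fully and both were below L4 (Day 15 against Day 6 -0.04, adjusted p = 0.884; Day 15 against L4 -1.02, adjusted p = 8.6e-04). The probe sets of this gene disagree, since another one, at 9.49, 8.89 and 9.61 in the means of L4, Day 6 and Day 15, changed by 0.71 from Day 6 to Day 15, and the remaining one, with means of 4.45 to 4.91, was higher in both adult ages than at L4. mrpl-34, the counterpart of a bacterial large-subunit protein, was at 11.66, 11.84 and 11.89, then at 11.36, 11.36 and 11.30, then at 11.01, 11.38 and 11.41. mrps-35, a small-subunit protein without a bacterial counterpart, was at 10.08, 10.19 and 9.64, then at 9.46, 9.32 and 8.56, then at 9.0, 9.34 and 8.79. Both changed by -0.07 between the adult ages (adjusted p = 0.764 and 0.869), with overlapping arrays.

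The last comparison asks how far Day 15 adults were from L4 larvae. Of the 57 members, 12 fell and 0 rose (21.1%), where 26.7% of all genes tested fell and 32.3% rose. At the adjusted p alone 24 were lower (42.1%, against 31.6%), 5 were higher (8.77%, against 40.4%) and 28 passed in neither direction. Day 15 arrays were all below L4 in 30 members (52.6%, against 32.5%) and all above L4 in 9 (15.8%, against 41.1%). The median change was -0.35, a 1.27-fold lower level, with a range from -1.64 to 0.95, and the median of all genes was 0.23. Without replicate 2 of L4, 10 members fell and 1 rose (27.9% and 33.5% of all genes), with a median of -0.31. At the adjusted p alone 24 were then lower and 7 higher, against 33.6% and 42.3% of all genes. Day 15 arrays were then all below L4 in 32 members and all above in 12, against 36.6% and 45.5% of all genes. With each array centred on its median, 6 members fell and 1 rose, and the median was -0.17, where that of all genes was 0.4. The member that rose was mrpl-40 in both.

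The 12 members that fell were mrpl-12, mrpl-15, mrpl-16, mrpl-20, mrpl-24, mrpl-44, mrpl-54, mrps-23, mrps-25, mrps-28, mrps-33 and mrps-34. mrps-33 was at the limit with -1.0. The calls of mrpl-44 (-1.02) and mrps-23 (-1.04) were lost with median centring, with changes of -0.85 and -0.87, and when some of the arrays were left out, and that of mrpl-44 also with the mean of its probe sets (-0.16). mrpl-24 (F59A3.3) and mrpl-20 (Y48C3A.10) are counterparts of bacterial large-subunit proteins. mrpl-24 was at 11.09, 11 and 11.23 at L4, at 9.35, 9.45 and 9.24 at Day 6 and at 9.73, 9.89 and 9.74 at Day 15, a change of -1.32 from L4 to Day 15 (adjusted p = 6.9e-05). mrpl-20 was at 10.51, 10.83 and 10.39, then at 9.04, 9.12 and 8.97, then at 9.03, 9.36 and 9.25. Its adult ages overlapped, and its change from L4 was -1.53 at Day 6 (adjusted p = 8.3e-05) and -1.36 at Day 15 (adjusted p = 1.4e-04).

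The 5 members higher at Day 15 than at L4 at the adjusted p alone were mrpl-40, mrpl-38, mrps-11, mrpl-18 and mrps-5, and none reached 2-fold. The changes were 0.67 for mrpl-38 (adjusted p = 0.00471), 0.63 for mrps-11 (adjusted p = 0.00451) and 0.51 for mrpl-18 (adjusted p = 0.0251), beside those of mrpl-40 and mrps-5 given above. These 3 are named because their count is small, not by the rule.

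Members thus differed in how near their Day 15 level came to that of L4. Among the 30 that fell from L4 to Day 6, the Day 15 mean had regained a median of 50.1% of the fall on the log2 scale, from 11% in mrpl-20 to 110% in mrps-6. This is a description of the 3 means, since the fall and the regain share the Day 6 arrays. Without replicate 2 of L4 the median was 53% over 29 members, from -3.72% in mrpl-44 to 112% in mrps-6. Over the 57 members the Day 15 mean lay between those of Day 6 and L4 in 38 and above that of L4 in 16. The differences between Day 15 and L4 had a median of -0.35, and 28 of the 57 members passed in neither direction at the adjusted p alone. The spread between replicates was small beside the median change of -1.06 from L4 to Day 6. The median SD (n = 3) was 0.16 at L4, 0.12 at Day 6 and 0.12 at Day 15. The highest were 0.50 for mrpl-51 at L4, 0.48 for mrps-35 at Day 6 and 0.35 for mrpl-9 at Day 15.

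The large and the small subunit are set side by side here, with no test between them. Of the large-subunit members 17 of 33 (51.5%, median -1.01) fell from L4 to Day 6, and of the small-subunit members 13 of 24 (54.2%, median -1.10), against 24.6% of all genes. From Day 6 to Day 15, 3 large-subunit members (9.09%, median 0.63) and 5 small-subunit members (20.8%, median 0.76) rose, against 16.4% of all genes. From L4 to Day 15, 7 (21.2%) and 5 (20.8%) fell, with medians of -0.35 and -0.38, against 26.7% of all genes. Leaving out replicate 2 of L4, these counts were 16 and 13 from L4 to Day 6 and 7 and 3 from L4 to Day 15. Of all genes, 26.6% and 27.9% then fell in these comparisons. All 3 Day 6 arrays were lowest in 26 of 33 large-subunit members (78.8%) and 19 of 24 small-subunit members (79.2%), against 13.2% of all genes.

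Members were also divided by their numbers, into 36 numbered as bacterial ribosomal proteins (mrpl up to 36, mrps up to 21) and 21 with higher numbers. Their medians were -1.02 and -1.20 from L4 to Day 6, 0.69 and 0.59 from Day 6 to Day 15 and -0.16 and -0.51 from L4 to Day 15. In the last comparison 5 of the 36 (13.9%) and 7 of the 21 (33.3%) fell, against 26.7% of all genes. Without replicate 2 of L4, 5 and 5 fell, against 27.9% of all genes. All 3 Day 6 arrays were lowest in 31 (86.1%) and 14 (66.7%) of them, against 13.2% of all genes. The difference between the classes was not tested.

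The 3 genes named for the small-subunit protein mrps-18 lay at separate loci and had their own probe sets. mrps-18.C (T14B4.2) was at 9.72, 10.26 and 10.09 at L4, at 9.03, 9.02 and 9.09 at Day 6 and at 9.69, 9.92 and 9.81 at Day 15. mrps-18B (T13H5.5) was at 11.19, 11.34 and 11.23, then at 10.92, 10.68 and 10.76, then at 11.38, 11.42 and 11.57. mrps-18C (C26E6.6) was at 10.98, 11.18 and 10.90, then at 10.44, 10.49 and 10.62, then at 11.28, 11.38 and 11.37. In all 3 the Day 6 arrays were lowest, and in mrps-18B and mrps-18C, but not in mrps-18.C, the Day 15 arrays were all above L4.

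The 2 members that were not tested were near background at every age. mrpl-45, whose human counterpart holds the ribosome at the inner membrane, lay between 2.91 and 3.74 over the 9 arrays, and mrps-31 between 3.10 and 4.27. Among the tested members, 5 have more than 1 probe set. Those of mrpl-4, mrpl-38, mrps-16 and mrps-28 changed in the same direction from L4 to Day 6 and again from Day 6 to Day 15, for example by 0.63 and 0.87 from Day 6 to Day 15 in mrpl-4, and those of mrpl-44 did not. By the RefSeq gene table, mrps-2 and mrpl-4 are next to each other on the chromosome, the only such pair among the members. From L4 to Day 6 mrpl-4 was lower at the adjusted p alone and mrps-2 passed in neither direction. Another 12 genes with such names in that table have no probe set of their own here and were not analysed here.

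Other genes of mitochondrial translation were taken from lists by name. Of 10 translation factors tested, 3 fell and 1 rose from L4 to Day 6 (median -0.27). These were 30% and 10%, against 24.6% and 29.3% of all genes. From Day 6 to Day 15, 0 fell and 0 rose (median 0.39), where 16.9% of all genes fell and 16.4% rose. At the adjusted p alone 3 were higher and 0 lower (30%, against 23.2% of all genes higher and 22% lower). Day 15 arrays were all above those of Day 6 in 8 of the 10 and all below in 0 (80%, against 34.5% above and 33.5% below). From L4 to Day 15, 2 fell and 1 rose (median 0.03). These were 20% and 10%, against 26.7% and 32.3% of all genes. tsfm-1, which encodes the exchange factor of the elongation factor Tu, had means of 10.30, 9.01 and 9.92 at L4, Day 6 and Day 15. It fell by 1.29 (adjusted p = 8.5e-04), and its later change of 0.91 was under 2-fold (adjusted p = 0.00883). oxa-1, the factor that inserts newly made proteins into the inner membrane, fell by 1.89 to Day 6 (adjusted p = 1.0e-04). eral-1 fell by 1.44 to Day 6 (adjusted p = 0.00134), and its change from Day 6 to Day 15 was -0.12 (adjusted p = 0.763). noa-1, a GTPase needed for mitochondrial translation in mammals, went the other way and rose by 1.22 to Day 6 (adjusted p = 7.9e-04) and by 1.89 from L4 to Day 15 (adjusted p = 4.9e-05). All 3 Day 6 arrays were lowest in 4 of the 10 (40%, against 13.2% of all genes), and the Day 6 mean was lowest in 6 (60%, against 22.9%).

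Of 11 mitochondrial aminoacyl-tRNA synthetases tested, which charge tRNAs with amino acids, 1 fell and 2 rose from L4 to Day 6 (median -0.10). These were 9.09% and 18.2%, against 24.6% and 29.3% of all genes. From Day 6 to Day 15, 2 rose (18.2%, against 16.4% of all genes), with a median of 0.54. At the adjusted p alone 4 were higher and 0 lower (36.4%, against 23.2% of all genes higher and 22% lower). Day 15 arrays were all above those of Day 6 in 9 of the 11 and all below in 0 (81.8%, against 34.5% above and 33.5% below). From L4 to Day 15, 4 rose (36.4%, against 32.3% of all genes), with a median of 0.44 over all arrays. Without replicate 2 of L4, 3 rose (27.3%, against 33.5% of all genes). sars-2, for serine, had means of 10.22, 8.86 and 9.87, falling by 1.35 (adjusted p = 2.0e-04) and rising by 1.00 (adjusted p = 0.00182). ears-2, for glutamate, rose by 1.42 from Day 6 to Day 15 (adjusted p = 4.4e-04). cars-2 and rars-2, for cysteine and arginine, were higher at Day 15 than at L4 by 2.02 and 1.78 (adjusted p = 8.2e-04 and 0.00321). The L4 mean of cars-2 was 4.31, which is near background. All 3 Day 6 arrays were lowest in 3 of the 11 (27.3%, against 13.2% of all genes), and the Day 6 mean was lowest in 6 (54.5%, against 22.9%).

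Genes that maintain and transcribe mitochondrial DNA did not share 1 direction. polg-1, the mitochondrial DNA polymerase, had means of 4.86, 7.05 and 8.77 and rose by 2.19 and then by 1.72 (adjusted p = 2.1e-04 and 0.00137). twnk-1, the helicase, fell by 2.55 from L4 to Day 6 (adjusted p = 2.3e-04), to a mean of 3.06, which is near background. mtss-1, the single-stranded DNA binding protein, fell by 1.30 (adjusted p = 2.7e-04). tfbm-1 rose by 2.02 from L4 to Day 6 (adjusted p = 0.00552) and by 3.11 from L4 to Day 15 (adjusted p = 4.3e-04). Over the 6 genes tested, 2 fell and 2 rose from L4 to Day 6 (33.3% each, against 24.6% and 29.3% of all genes). From Day 6 to Day 15, 1 rose (16.7%, against 16.4%). From L4 to Day 15, 1 fell and 4 rose (16.7% and 66.7%, against 26.7% and 32.3%). These rises numbered 2 from Day 6 to Day 15 and 3 from L4 to Day 15 when replicate 2 of L4 was left out. They were then 33.3% and 50%, against 17.3% and 33.5% of all genes. The genes encoded by mitochondrial DNA itself were not analysed here, since 0 of 12 names matched a gene of the array's annotation.

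Of 14 genes of mitochondrial protein quality control and stress response, 2 fell and 0 rose from L4 to Day 6 (median -0.29). The falls were 14.3%, against 24.6% of all genes, and 29.3% of all genes rose. From Day 6 to Day 15, 2 fell and 1 rose (median 0.15). These were 14.3% and 7.14%, against 16.9% and 16.4% of all genes. From L4 to Day 15, 4 fell and 2 rose (median -0.06). These were 28.6% and 14.3%, against 26.7% and 32.3% of all genes. When replicate 2 of L4 was left out, 3 fell from L4 to Day 6 (21.4%, against 26.6% of all genes). In that fit 3 fell from Day 6 to Day 15 (21.4%, against 18.4%) and 1 rose from L4 to Day 15 (7.14%, against 33.5%). The chaperonin gene hsp-60 had means of 11.31, 8.02 and 6.77 and fell in both steps (by 3.29, adjusted p = 4.8e-05, and by 1.25, adjusted p = 0.0167). hsp-6, the mitochondrial Hsp70 often used as a reporter of the mitochondrial unfolded protein response, had means of 11.78, 11.46 and 11.76 and passed in no comparison. atfs-1, the transcription factor of that response, fell by 1.17 from Day 6 to Day 15 (adjusted p = 0.0209). The protease genes spg-7 and lonp-1 went the other way. spg-7 rose by 1.02 from Day 6 to Day 15 (adjusted p = 0.0185) and by 1.17 from L4 to Day 15 (adjusted p = 0.00566). lonp-1 rose by 1.20 from L4 to Day 15 (adjusted p = 0.00525), and its change was 0.87, under 2-fold, without replicate 2 of L4.

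The nuclear genes of the respiratory chain, whose products are assembled with those of the mitochondrial ribosome, were also lower at Day 6 than at L4 in the median, and their median hardly differed between the adult ages. Of 43 tested, 12 fell and 0 rose from L4 to Day 6 (median -0.66). The falls were 27.9%, near the 24.6% of all genes, and 29.3% of all genes rose. From Day 6 to Day 15, 1 fell and 3 rose (median 0.02). These were 2.33% and 6.98%, against 16.9% and 16.4% of all genes. From L4 to Day 15, 15 fell and 1 rose (median -0.66). These were 34.9% and 2.33%, against 26.7% and 32.3% of all genes. Each of the comparisons with L4 gave 11 falls (25.6%) when replicate 2 of L4 was left out, against 26.6% and 27.9% of all genes. At the adjusted p alone 34 were lower at Day 6 than at L4 and 0 higher (79.1%, against 30.5% of all genes lower and 37.2% higher). Day 6 arrays were all below those of L4 in 38 (88.4%, against 32.6%) and all above them in 1 (2.33%, against 39.6%). Between Day 6 and Day 15, 4 were lower and 4 higher at the adjusted p alone (9.3% each, against 22% and 23.2%). All 3 Day 6 arrays were lowest in 6 of 43 (14%), near the 13.2% of all genes. The Day 6 mean was the lowest of the 3 ages in 21 (48.8%, against 22.9% of all genes). The ATP synthase genes asb-2 and asg-2 fell by 2.41 and 1.59 from L4 to Day 6 (adjusted p = 2.8e-06 and 1.7e-04). Their changes from Day 6 to Day 15 were -1.12 (adjusted p = 4.3e-04) and -0.82 (adjusted p = 0.0112, under 2-fold).

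Few genes of the cytosolic ribosome, which makes the proteins of the rest of the cell, passed the test. Of 62 tested, 1 fell from L4 to Day 6 (rpl-41.1, by 1.11), which is 1.61%, against 24.6% of all genes. From Day 6 to Day 15, 0 fell and 0 rose, against 16.9% and 16.4% of all genes. From L4 to Day 15 these were 0 and 0 too, against 26.7% and 32.3%. The medians of the 3 comparisons were -0.05, 0.10 and 0.06. At the adjusted p alone 6 were lower at Day 6 than at L4 and 0 higher (9.68%, against 30.5% lower and 37.2% higher). From Day 6 to Day 15, 53 changes were positive and 9 negative, against 5890 and 5858 of the 11760 genes tested. All 3 Day 6 arrays were lowest in 9 of 62 (14.5%, against 13.2% of all genes). The Day 6 mean was the lowest of the 3 ages in 36 (58.1%, against 22.9% of all genes). The call of rpl-41.1 was lost without replicate 2 of L4 (change -0.96). These probe sets were bright, with a median of 13.16 where the highest mean of any gene tested was 14.16 and that of a mitochondrial ribosomal protein gene was 12.08. Whether such bright signals still follow a change in RNA was not tested, so the small number of calls does not show that these genes were stable. The differences between these lists and the mitochondrial ribosomal protein genes were not tested.

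**Figure D3:**
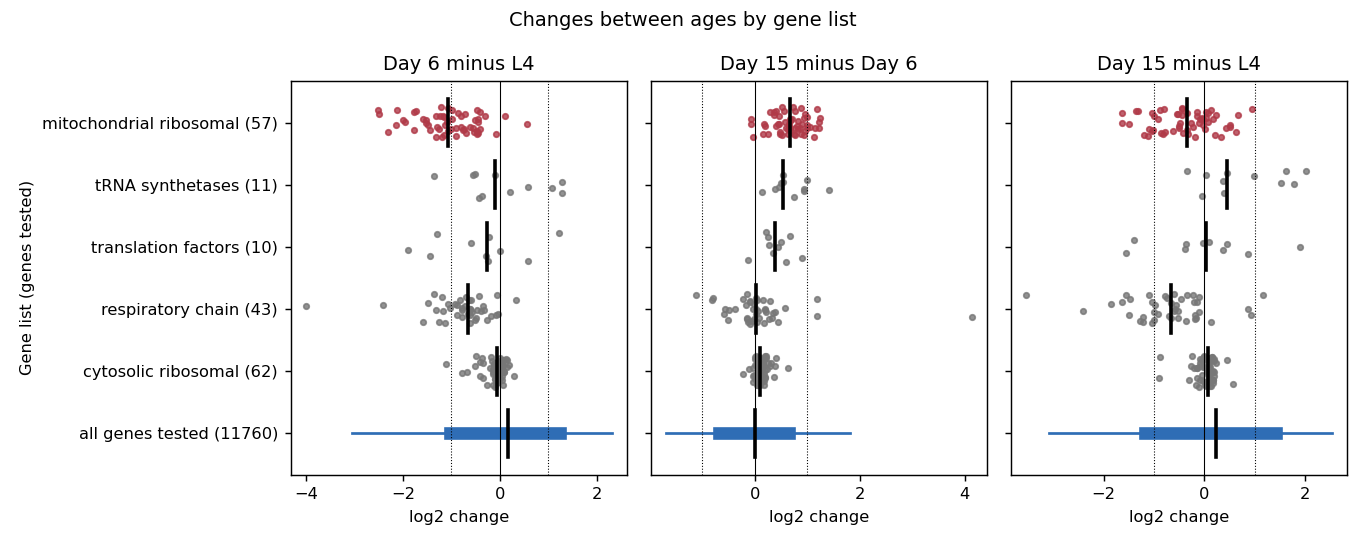
Log2 changes of single genes (points) and their median (black bar) for the mitochondrial ribosomal protein genes and companion lists, in 3 panels with their own scales for Day 6 against L4, Day 15 against Day 6 and Day 15 against L4. For all genes the thick line spans the middle quartiles and the thin line the outer deciles, and dotted lines mark a 2-fold change. The median of the mitochondrial ribosomal protein genes lies at -1.06, 0.67 and -0.35, that of the nuclear respiratory chain genes at -0.66, 0.02 and -0.66, and that of the cytosolic ribosomal proteins near 0 in each panel.

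Markers of cell types moved with age as well. In whole-worm RNA, fewer cells of a type and less RNA per cell cannot be told apart. Of the 9 sperm markers on the array 7 were tested, and spe-9 and spe-38 were under 4 at every age. The summed level of the sperm markers on the linear scale was 6960 to 11400 at L4, 1120 to 1620 at Day 6 and 9290 to 10800 at Day 15. Such sums follow the brightest markers most, here gsp-3 and gsp-4 with L4 means of 11.74 and 11.47. From L4 to Day 6, 4 of the 7 fell (57.1%, against 24.6% of all genes) and 0 rose, with a median of -1.89. The changes of fer-1 and spe-41 went the other way, by 1.09 (adjusted p = 0.0585) and 0.85 (adjusted p = 0.0369, under 2-fold). From Day 6 to Day 15 all 7 rose (16.4% of all genes rose), with a median of 2.79. From L4 without replicate 2 to Day 6, 5 fell and 1 rose, against 26.6% and 30.6% of all genes. The direction of these medians was that of the mitochondrial ribosomal protein genes in both comparisons. All 3 Day 6 arrays were lowest in 4 of the 7 (57.1%, against 13.2% of all genes). Among the respiratory chain genes the paralog of cytochrome c cyc-2.2 was lowest at Day 6, with means of 10.73, 6.72 and 10.86. It was the only 1 of the 43 both lower at Day 6 than at L4 and higher at Day 15 than at Day 6 at the adjusted p alone. Both held in 38 of the 57 mitochondrial ribosomal protein genes (66.7%) and in 10.7% of all genes tested. Whether cyc-2.2 follows the sperm markers was not tested.

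The 10 oocyte markers had summed levels of 5650 to 26400 at L4, 46200 to 52900 at Day 6 and 35800 to 40100 at Day 15. All 10 rose from L4 to Day 6 (29.3% of all genes rose), also without replicate 2 of L4. The 10 germline markers were at 7230 to 14100, then 15800 to 18000, then 22600 to 23900. The summed markers of intestine, body wall muscle and hypodermis were lower with each age, from 34900 to 41000 at L4 to 16300 to 19600 at Day 6 and 9400 to 11400 at Day 15 for 10 intestine markers, from 45600 to 47600 to 27200 to 28500 and 10800 to 13900 for 10 body wall muscle markers and from 43400 to 51200 to 12200 to 13400 and 3470 to 4520 for 9 hypodermis markers. Single markers could go the other way, as lin-26 of the hypodermis, which rose by 1.14 from L4 to Day 6. The 10 neuron markers were at 7180 to 9090, 7750 to 8170 and 5250 to 6470, with L4 and Day 6 overlapping. The 5 yolk protein genes were at 36900 to 43700, 51800 to 54600 and 22800 to 27400. That sum hides differences, since from Day 6 to Day 15 vit-1 changed by -7.37 and vit-2 by -0.50. Whether bright signals still follow RNA was not tested here either, and vit-2, vit-4, vit-5 and vit-6 had L4 means of 12.91 to 13.5. The part of these cell types in the changes of the mitochondrial ribosomal protein genes was not tested.

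**Figure D4:**
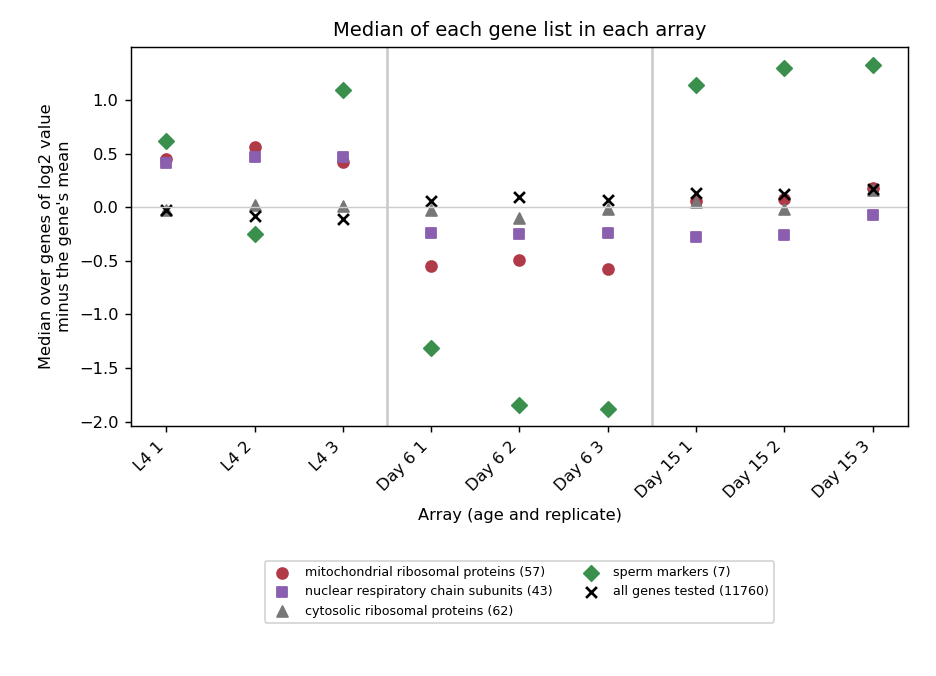
Median over the genes of a list of the log2 value minus the gene's mean over the 9 arrays, for each array by age and replicate. The mitochondrial ribosomal protein genes lie at 0.42 to 0.56 at L4, at -0.58 to -0.49 at Day 6 and at 0.06 to 0.18 at Day 15, and the sperm markers have their lowest values at Day 6 too.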

How the data were processed

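Total RNA (100 ng per array) of whole worms was amplified and hybridised by the authors, with 3 arrays per age. They deposited log2 expression values obtained with GCRMA, which corrects background and normalizes between arrays. Its version is not given in the sources used here. Their filter on present calls and their subtraction of gene means were not applied. The background correction sets the level of dim probe sets, and the normalization assumes similar distributions in all arrays.

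Of 22625 probe sets, 77 are controls and 20766 stand for 1 gene. A further 2 probe sets hold a member and another gene and were not used. The 3 ages were fitted together in limma 3.58.1 (R 4.3.3, lmFit and eBayes, 6 residual degrees of freedom), and p-values were adjusted by Benjamini-Hochberg. Adjusted p-values and standard errors in the text come from this fit. The paper's test, a test per gene on the same values, was an alternative. Summaries were computed in Python 3.11.15 with pandas 2.3.3 and numpy 2.4.6, and plots were drawn in matplotlib 3.10.9. The RefSeq gene table (WBcel235) gave names and neighbours only.

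Members, companion lists and markers were chosen with earlier results of these data known. Values in every array are given for up to 6 called members with the largest change per direction and comparison, for called members against the main direction, and for the 3 with the smallest change between Day 15 and Day 6. As a rule up to 3 called genes are named per companion list and comparison, and in some lists more. Lists are described by counts and medians with no test. As alternatives, other scalings, filters, floors, thresholds, variance models, tests and choices of probe set were tried, only the 2 ages compared were fitted, each array was left out in turn, and the replicate number was used as a block.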

Additional observations from a re-analysis of the deposited data

How the results depend on the processing

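With no fold threshold, 41 members were higher at Day 15 than at Day 6, 49 were lower and 1 higher at Day 6 than at L4, and 24 were lower and 5 higher at Day 15 than at L4. Centring each array on its median moved the median of all genes by 0.19 for Day 6 against L4, by 0.17 for Day 15 against L4 and by -0.02 for Day 15 against Day 6. The members' medians became -0.86 and -0.17 in the comparisons with L4. The falls from L4 to Day 6 numbered 22, and 38 were lower at the adjusted p alone, and from L4 to Day 15 6 members fell and 1 rose. With quantile normalization 1 rose from L4 to Day 15. The call of mrpl-40 at the adjusted p alone was lost (0 members) with only the 2 ages compared, with the adjusted test of the methods and with the replicate block. With the methods' unadjusted p, 8 members were higher at Day 15 than at L4 without a fold threshold. Leaving out 1 array at a time, 28 to 32 members fell from L4 to Day 6 (median -1.10 to -1.0), 7 to 10 rose from Day 6 to Day 15 (median 0.66 to 0.72) and 8 to 14 fell and 0 to 1 rose from L4 to Day 15 (median -0.45 to -0.29). The 8 were left without Day 15 replicate 1, and the 1 that rose appeared without Day 15 replicate 2 or L4 replicate 2. At the adjusted p alone these ranges were 42 to 50 lower and 0 to 1 higher for Day 6 against L4, 31 to 45 higher for Day 15 against Day 6, and 20 to 26 lower and 4 to 7 higher for Day 15 against L4. No member fell from Day 6 to Day 15 and none rose from L4 to Day 6 at 2-fold in any alternative run.

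Among named members, the change of mrps-21 from L4 to Day 15 turned to 0.15 with median centring, 0.11 with quantile normalization and 0.04 and 0.05 without Day 15 replicate 2 and L4 replicate 2 (-0.09 to 0.05 over the arrays left out). The change of mrpl-44 from Day 6 to Day 15 turned to 0.21 with the mean of its probe sets and 0.02 without Day 6 replicate 3 (-0.14 to 0.02 over the arrays left out), and with probe sets without a suffix its changes from L4 were 0.46 at Day 6 and 0.42 at Day 15. From Day 6 to Day 15, mrpl-34 turned to 0.05 without Day 15 replicate 1 (range -0.15 to 0.05), and mrps-35 to 0.06, 0.10 and 0.03 without Day 15 replicate 3, Day 6 replicate 1 and Day 6 replicate 2 (range -0.35 to 0.10). The rise of mrpl-54 was 0.86 to 0.98, under 2-fold, without Day 15 replicate 1 or 2 or Day 6 replicate 1 and with either centring, and that of mrps-25 was 0.98 and 0.99 without Day 15 replicate 2 and Day 6 replicate 2. The fall of mrps-6 to Day 6 was -0.88 with median centring and -0.97 without Day 6 replicate 3. From L4 to Day 15, the fall of mrpl-44 was -0.16 with the mean of its probe sets, -0.85 with median centring and -0.99 to -0.90 without Day 15 replicate 1 or 2 or L4 replicate 1, and that of mrps-23 was -0.87 with median centring and -0.97 without Day 15 replicate 1 or L4 replicate 2. The causes were not tested.

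The replicate numbers are shared between ages but did not pair the arrays. Deviations of arrays with the same number correlated at -0.056 to 0.185 over 9 pairs, against -0.215 to 0.153 over 18 pairs with different numbers. With the replicate block 8 members rose from Day 6 to Day 15, 30 fell from L4 to Day 6 and 12 fell from L4 to Day 15, the same counts as without it, and over all genes 3927, 6344 and 6925 were called against 3923, 6340 and 6936. Values near 4 lie close to background, which leaves mrpl-45 and mrps-31 without a usable level.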
